A study of Mus musculus with 6 samples.

Results

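Markers of adipose stem and progenitor cells were compared between WT and cavin-3 knockout (KO) mice in whole adipose tissue. The list holds 9 genes chosen by name, of which 8 were measured among 19937 genes in all: Pdgfra, Pdgfrb, Dpp4, Pi16, Icam1, F3, Cd34 and Dlk1. Ly6a, which encodes the surface antigen Sca-1, has no probe set of its own in the annotation used and was not analysed here. Each gene was read from 1 probe set, the only one annotated to it alone. Total RNA came from 3 WT and 3 KO mice, described as littermates, 10 weeks old, on standard chow and fasted for 6 hours before the tissue was taken. KO mice carried a lacZ/neo fusion cassette in place of the whole cavin-3 gene in every tissue, from 1 line of targeted C57BL/6N embryonic stem cells bred to C57BL/6 mice. The fat depot is not named in the labels, and the methods describe male animals only.

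New adipocytes arise from stromal cells that lie between and around the vessels of fat tissue and carry PDGF receptors at their surface. Cells that express Dpp4 and Pi16 lie in the fibrous septa around the fat lobules and act as early, uncommitted progenitors, whereas cells with Icam1 are preadipocytes closer to differentiation. Cells with F3 form a stromal group reported to restrain adipogenesis. Dlk1, or Pref-1, is a preadipocyte gene that is switched off as adipocytes mature. None of these genes is specific to progenitors: Pdgfrb also marks mural cells, Cd34 endothelial cells and Icam1 endothelial cells and leukocytes. The measurement is of whole tissue, so a smaller number of progenitors and less RNA per progenitor could not be told apart.

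Affymetrix Mouse Gene 1.0 ST arrays were used, and all values below are log2 of the deposited intensity unless a fold is named. Values of single arrays are listed in the order of replicates 1, 2 and 3. A level can be compared between arrays for 1 gene but not between genes, since each probe set has its own response. Cavin-3, the targeted gene, had a mean of 10.46 ± 0.43 (SD, n = 3) on the WT arrays and of 6.90 ± 0.19 (SD, n = 3) on the KO arrays, and only 1 of 19937 genes (0.00502%), cavin-3 itself, had an adjusted p under 0.05 from limma. That call was lost without WT replicate 2 or 3 or any 1 KO array (adjusted p of cavin-3 from limma = 0.072 to 0.51), although its log2 difference stayed between -3.68 and -3.35 in these fits. As markers of the labelled tissue, 10 of 11 listed adipocyte genes were measured, with a list mean of 12.01 to 12.22 over the 6 arrays. The arrays of 1 genotype were not alike. Xist, the RNA of the inactive X chromosome in female cells, was high on 2 arrays, WT replicate 2 (11.14) and KO replicate 3 (11.34), against 3.70 to 6.30 elsewhere. Uty, a gene of the Y chromosome, was low on these 2 (3.36 and 3.21) and lay between 7.89 and 8.14 elsewhere. The Xist and Uty values of these 2 arrays are at odds with the male animals of the methods, and the labels give no sex. The mean of 11 skeletal muscle genes was 9.09 on both of these arrays and 5.93 to 6.74 on the other 4. Results are therefore also given without these 2 arrays.

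The 8 progenitor markers had nearly the same mean level in both genotypes. The KO level lay between 0.949-fold (Pi16) and 1.06-fold (Dpp4 and Pdgfrb) of WT, with 4 markers higher and 4 lower and a median log2 difference of -0.00074, against 0.00085 over all genes. By limma, 0 of the 8 had an adjusted p under 0.05 (adjusted p = 1.0 for each), where 0.00575% of all 34760 probe sets had one. None had an unadjusted p under 0.05 either, against 0.838% of genes, and the methods' t-test called 0 of the 8, adjusted or not, where it gave an unadjusted p under 0.05 for 1.74% of genes (2.18% of probe sets) and an adjusted one for 0 of 34760 probe sets. With shares this low, a count of 0 among 8 genes is close to the background. Values of the genotypes overlapped for 8 of 8 markers (4.61% of all genes did not overlap), and for each marker both the range within WT and the range within KO exceeded the difference between the means. Both ranges also exceeded the difference for 145 of 160 genes of the related lists described below, so this was not particular to the markers. The 95% intervals, the widest of which ran from 0.572 to 1.57-fold, left out a 2-fold change of intensity in either direction for every measured marker. Background was not known, so this need not hold for the RNA of a weakly detected marker. Cavin-3, whose gene was replaced, still averaged 6.90 on the KO arrays, and Dlk1 averaged 7.09 in WT and 7.08 in KO. The number higher in KO was set by single arrays: it was 2 without WT replicate 1 or without KO replicate 3, and 7 without KO replicate 1.

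**Figure D1:**
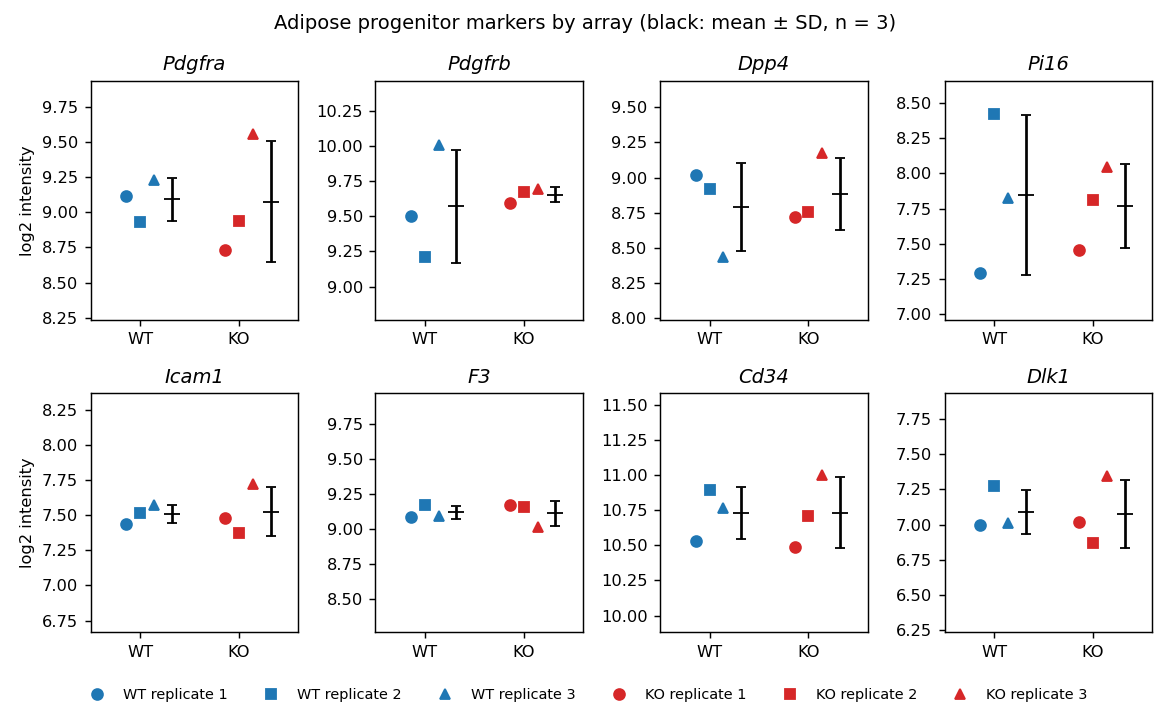
Log2 intensity (vertical axis, each panel spanning 1.7 units) of the 8 measured progenitor markers, with 1 point per array for WT (blue) and cavin-3 KO (red), the symbol giving the replicate and black bars the mean ± SD of 3 arrays. WT and KO points overlap in every panel, F3 lies within 0.162 over all 6 arrays, and Pi16 spans 1.13.

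The PDGF receptors are tyrosine kinases, and PDGFRα is the receptor most used to sort adipocyte progenitors. Pdgfra was at 9.11, 8.93 and 9.23 in WT replicates 1, 2 and 3 and at 8.73, 8.94 and 9.56 in KO replicates 1, 2 and 3. KO animals held both the lowest and the highest value, and the range within KO (0.825) was wider than that within WT (0.301). Mean expression in KO was 0.988 times that in WT (95% interval 0.683 to 1.43, unadjusted p = 0.942 from limma). Without WT replicate 2 and KO replicate 3, the remaining 2 KO arrays were below the remaining 2 WT arrays, at 0.791-fold (0.626 to 1.0, unadjusted p = 0.050, adjusted p = 1.0 from limma).

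Pdgfrb, the receptor found on progenitors along vessels and on pericytes, was at 9.50, 9.21 and 10.0 in WT and at 9.60, 9.67 and 9.70 in KO. All 3 KO values fell inside the WT range, which was 0.793 against 0.0987 within KO. The mean KO level was 1.06-fold of WT (0.758 to 1.48) and 0.921-fold without WT replicate 2 and KO replicate 3. WT replicate 2 was lowest and WT replicate 3 highest for Pdgfrb, and the same 2 arrays were lowest and highest for the mean of 11 endothelial genes, at 9.22 and 9.64 (9.38 to 9.53 on the other 4 arrays). The mean of 10 mural cell genes did not follow this order, being highest in KO replicate 2 (9.35) and WT replicate 1 (9.32) and lying between 8.75 and 9.0 elsewhere. Single mural genes differed in this. Abcc9 and Kcnj8 were, like Pdgfrb, lowest on WT replicate 2 and highest on WT replicate 3, and Rgs5 was also highest on WT replicate 3. By contrast, Acta2 and Des were highest on WT replicate 1 and Cspg4 on WT replicate 2. The part of vessel content in the spread of Pdgfrb was not tested.

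Dpp4 encodes a membrane peptidase that cleaves incretin hormones and chemokines. Its level was 9.02, 8.92 and 8.43 in WT and 8.72, 8.76 and 9.18 in KO. WT replicate 3 was lowest and KO replicate 3 highest. KO was at 1.06-fold of WT (0.764 to 1.49), the largest log2 difference among the 8 (0.09), and at 1.01-fold without WT replicate 2 and KO replicate 3. Removing WT replicate 3 turned it to -0.09 on the log2 scale, and removing KO replicate 3 to -0.06.

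Pi16 encodes a protein of the peptidase inhibitor family made by fibroblasts and is expressed in the same septal cells as Dpp4. It was the most variable marker, at 7.29, 8.42 and 7.83 in WT and 7.45, 7.81 and 8.05 in KO. The range was 1.13 within WT and 0.595 within KO, both far wider than the difference between the genotypes. KO was at 0.949-fold of WT (0.572 to 1.57), with a log2 difference of -0.08 that became 0.21 without WT replicate 2 and 0.08 without KO replicate 1. Dpp4 and Pi16 did not share their array order: WT replicate 1 had the second highest value for Dpp4 and the lowest for Pi16.

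Cd34 encodes a sialomucin of progenitor, endothelial and blood-forming cells. Its values were 10.53, 10.90 and 10.76 in WT and 10.49, 10.71 and 11.00 in KO. The means differed by 0.0033 on the log2 scale, the smallest difference of the 8, with KO at 1.0-fold of WT (0.764 to 1.31). Dlk1, a transmembrane protein of the Notch ligand family, was at 6.99, 7.27 and 7.01 in WT and 7.02, 6.87 and 7.34 in KO. KO was at 0.990-fold of WT (0.769 to 1.28). For both genes WT replicate 2 and KO replicate 3 stood above the other 4 arrays.

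Icam1, an adhesion molecule bound by leukocyte integrins, and F3, the tissue factor that starts coagulation, were the steadiest of the 8. Icam1 was at 7.44, 7.52 and 7.57 in WT and 7.48, 7.37 and 7.72 in KO, so that 2 of 3 KO arrays lay within or below the WT range. KO was at 1.01-fold of WT (0.836 to 1.22). F3 was at 9.09, 9.17 and 9.10 in WT and 9.17, 9.16 and 9.01 in KO. All 6 values lay within 0.162, and KO was at 0.997-fold of WT (0.861 to 1.15), the narrowest interval of the list. The interval for F3 therefore leaves out changes above 1.15-fold, whereas that of Pi16 leaves room for 1.57-fold.

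**Figure D2:**
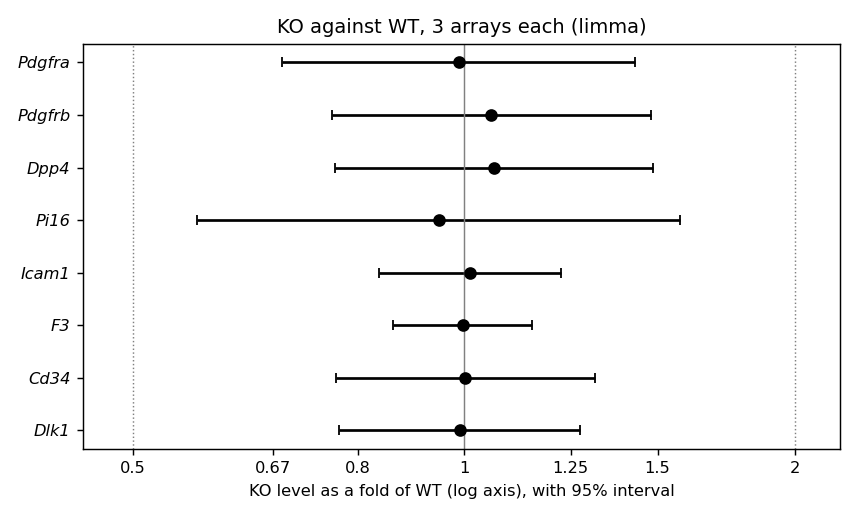
KO level as a fold of WT (horizontal log axis) for the 8 measured progenitor markers, with points for the limma estimate over 3 WT and 3 KO arrays and bars for the 95% interval. Every interval crosses 1 and stays inside the dotted lines at 0.5 and 2, from the narrowest at F3 (0.861 to 1.15) to the widest at Pi16 (0.572 to 1.57).

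The markers differed more between animals of 1 genotype than between genotypes, as did most genes of the related lists. Within genotypes, the SD pooled over WT and KO was 0.45 for Pi16, 0.32 for Pdgfra, 0.29 for Pdgfrb and Dpp4, 0.22 for Cd34, 0.20 for Dlk1, 0.13 for Icam1 and 0.07 for F3. Among the 9968 genes above the median signal, these placed Pi16 at percentile 95.2 of spread, Pdgfra at 90.1, Pdgfrb and Dpp4 at 87.4 and F3 at 12.3. KO replicate 3 held the highest value of 5 of the 8 markers (Pdgfra, Dpp4, Icam1, Cd34 and Dlk1) and the lowest value of F3. KO replicates 1 and 2 and WT replicate 1 were the highest for none. KO replicate 1 was the lowest for Pdgfra and Cd34, and KO replicate 2 for Icam1 and Dlk1. Shares of all genes highest or lowest on a given array were not taken, so these counts cannot be read as particular to the markers.

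For 3 of the 8 markers, Pi16, Cd34 and Dlk1, the 2 highest values were those of WT replicate 2 and KO replicate 3, the arrays with high Xist and high skeletal muscle genes. This held for 11.5% of the 9968 genes above the median signal, a group that includes all 8 markers, and for 16.6% of all genes. The mean of these 2 arrays exceeded that of the other 4 by 0.64 for Pi16, 0.33 for Dlk1 and 0.32 for both Cd34 and Dpp4. It fell below that of the other 4 by -0.24 for Pdgfrb and differed by -0.03 for F3. These are descriptions with no test, since the 2 arrays were set apart by their own values, and the part of sex or of muscle RNA in them was not tested. Each genotype holds 1 of the 2 arrays, but these differed from each other: KO replicate 3 was above WT replicate 2 by 0.63 for Pdgfra and 0.48 for Pdgfrb, and its difference from WT replicate 2 was -0.38 for Pi16. Without both arrays the sign of the difference turned for Pdgfrb, Pi16, Icam1, F3 and Cd34, and the KO level of the 8 markers ran from 0.791-fold (Pdgfra) to 1.05-fold (Pi16 and F3).

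**Figure D3:**
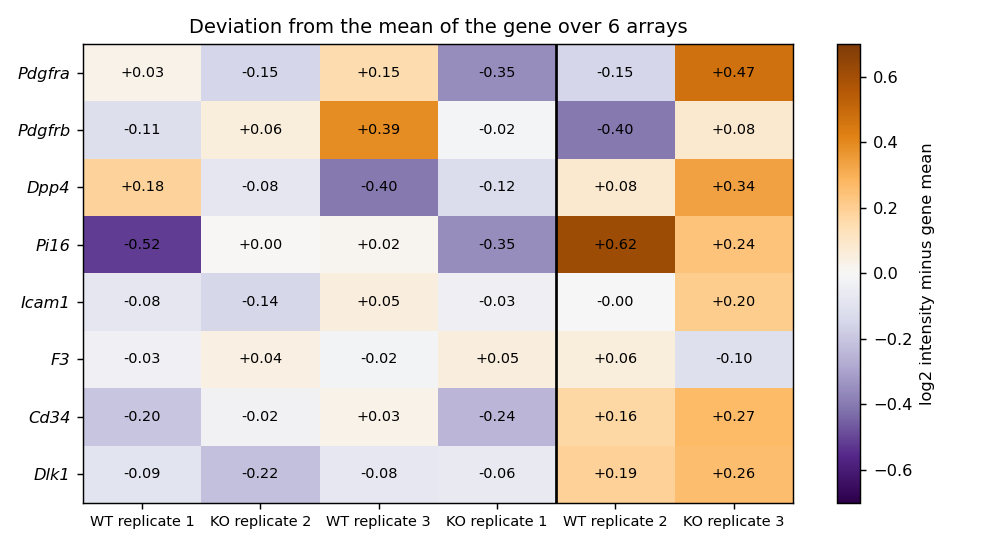
Deviation of each array from the mean of the gene over the 6 arrays (log2 intensity, colour scale and printed values) for the 8 progenitor markers, with the 2 arrays of high Xist to the right of the black line. Pi16, Cd34 and Dlk1 have their 2 highest values on these arrays, Dpp4 is also above its mean on both, and Pdgfrb is lowest on WT replicate 2.

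The upstream sequences of these 3 genes are shown because their highest values fell on the same arrays. The 250 bases before the start site were taken from RefSeq (GRCm38.p6), 5′ to 3′ on the plus strand, at chr17:29318632-29318881 for Pi16, chr1:194938571-194938820 for Cd34 and chr12:109452573-109452822 for Dlk1. Capitals mark matches on either strand to the TATA box (TATAAA), the CCAAT box (CCAAT), the GC box (GGGCGG) or the E-box (CANNTG).
Pi16: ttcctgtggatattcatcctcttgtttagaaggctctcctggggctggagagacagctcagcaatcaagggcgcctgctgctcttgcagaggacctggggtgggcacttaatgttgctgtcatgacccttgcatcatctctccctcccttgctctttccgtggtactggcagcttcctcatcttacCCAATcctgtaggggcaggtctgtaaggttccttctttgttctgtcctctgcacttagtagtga
Cd34: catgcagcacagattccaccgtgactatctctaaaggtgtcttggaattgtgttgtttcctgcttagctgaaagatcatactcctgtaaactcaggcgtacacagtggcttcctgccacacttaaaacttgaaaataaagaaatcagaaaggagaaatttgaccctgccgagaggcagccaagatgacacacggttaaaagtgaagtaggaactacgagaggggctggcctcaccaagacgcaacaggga
Dlk1: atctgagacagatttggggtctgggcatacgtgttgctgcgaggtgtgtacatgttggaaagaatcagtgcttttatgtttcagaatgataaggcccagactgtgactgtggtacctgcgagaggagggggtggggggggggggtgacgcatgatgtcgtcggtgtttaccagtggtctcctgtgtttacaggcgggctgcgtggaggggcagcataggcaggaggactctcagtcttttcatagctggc
Pi16 has 1 match, a CCAAT box starting 64 bases before the start site, and the windows of Cd34 and Dlk1 hold none of the 4 motifs. In all 32851 promoters of this length in the table, 12.4% hold a TATAAA, 33.8% a CCAAT, 32.7% a GGGCGG and 66.2% a CANNTG. The GC content is 52.4% for Pi16, 46.4% for Cd34 and 54.8% for Dlk1, against a median of 52.4% over all promoters.

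The array profiles of the 3 markers with the widest SD over the 6 arrays (0.41 for Pi16, 0.29 for Pdgfra and 0.26 for Dpp4, with Pdgfrb just below Dpp4) were set beside those of the 9968 genes above the median signal, by the root-mean-square difference of the log2 values centred over the 6 arrays. The genes closest to Pi16 were Stambpl1, a deubiquitinase gene (0.0613), and Sstr4, a somatostatin receptor gene (0.0918). Closest to Pdgfra were Chp2 (0.0436) and Cnrip1 (0.0801), and closest to Dpp4 were Alyref2 (0.0654) and Serp1 (0.0796). These are the closest of 9968 profiles over 6 arrays, given as a description. No other progenitor marker was among them, but so few profiles were kept that this absence carries no information.

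Genes that share cells or pathways with the markers were described from lists, 160 measured genes of 166 listed. As for the markers, limma gave an adjusted p under 0.05 for 0 of the 160, 0 had an unadjusted p under 0.05 with limma (0.838% of genes) or with the methods' t-test (1.74% of genes), and 76 were higher and 84 lower in KO, where 50.3% of all genes were higher. Values did not overlap between the genotypes for 3 of the 160: the collagen gene Col1a1 and the endothelial genes Esam and Robo4, against 4.61% of all genes.

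Among further genes of the septal, Dpp4-expressing progenitors, 3 of 10 were higher and 7 lower in KO, with a median log2 difference of -0.07, which turned to 0.07 when WT replicate 2 was left out and to 0.05 when KO replicate 1 was. Il13ra1, a receptor subunit for interleukin-13, had a difference of 0.17 and Dact2, a modulator of Wnt signalling, one of -0.17. On WT replicate 2 and KO replicate 3 the list mean stood apart as Pi16 did, at 7.51 and 7.35 against 6.99 to 7.06. These arrays held the 2 highest values for 6 of the 10 genes, but Dact2 was lowest on KO replicate 3 and Il13ra1 on WT replicate 2. The same held for 11 of 11 skeletal muscle genes, 4 of 8 mesothelial genes and 40 of the 160 genes, so it was not particular to this list. Of 11 genes of committed preadipocytes, 5 were higher and 6 lower (median -0.0034), with the adhesion molecule Vcam1 at 0.13 and the transcription factor Ebf2 at 0.11. For the list of F3-expressing stromal cells, 8 of 10 were higher and 2 lower, with a median of 0.18. This median was 0.0077 without WT replicate 2 and -0.04 without WT replicate 2 and KO replicate 3. The cholesterol exporter gene Abcg1 had the largest difference there, at 0.33 (1.26-fold, 95% interval 0.977 to 1.62, unadjusted p = 0.069 from limma), followed in p by the homeobox gene Meox2 at 0.27. Of 17 general stromal and fibroblast genes, 8 were higher and 9 lower (median -0.0037). Col1a1 was at 10.71, 10.55 and 10.57 in WT and 10.35, 10.39 and 10.54 in KO, at 0.881-fold (0.749 to 1.04), and Eng, a TGF-beta co-receptor, had a difference of 0.22.

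Partners of the marker proteins had list medians between -0.06 and 0.05, with single genes further from 0 than any marker. PDGF ligands and signalling proteins had 3 of 11 higher (median -0.04), with the ligand gene Pdgfb at 0.11 and Stat3 at -0.10. In the list for DLK1 and the Notch pathway, to which Dlk1 belongs by structure, 6 of 10 genes were higher (median 0.0046). They include Meg3, listed as the imprinted RNA gene next to Dlk1, at 0.16. The ligand gene Jag2 was at -0.08. Of 7 measured partners of tissue factor 4 were higher (median 0.01), among them its inhibitor Tfpi at 0.31 (1.24-fold, 0.932 to 1.65), while thrombomodulin (Thbd) was at -0.19. Of 8 ICAM1 partners 3 were higher (median -0.06), with Icam2 at -0.16 and the integrin subunit Itgb2 at -0.14. Relatives of DPP4 had 4 of 7 higher (median 0.05), with differences from -0.16 to 0.14. In the Ly6 family, which includes the unmeasured Ly6a, 3 of 7 were higher (median -0.04). Over the probe sets above the median signal the median was -0.44, but it rested on only 2 genes, Ly6d at -0.91 and Ly6e at 0.03. Ly6d, a gene of stratified epithelia, had the widest difference of all 160 genes, at -0.91 (0.534-fold, 0.177 to 1.61), and ran from 6.20 to 8.63 within WT. Its size rested on single arrays, being -0.30 without WT replicate 2, -0.60 without KO replicate 1 and -1.51 without WT replicate 3, and leaving out both WT replicate 2 and KO replicate 3 gave -0.18.

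For other cells of the tissue, the list median was -0.0034 for 10 mural genes (5 higher), -0.05 for 9 leukocyte genes (2 higher), 0.04 for 10 adipocyte genes (7 higher) and -0.03 for 8 mesothelial genes (4 higher). Leaving out single arrays moved these medians across 0, between -0.06 and 0.10 for mural, -0.11 and 0.07 for leukocyte, -0.04 and 0.07 for adipocyte and -0.16 and 0.14 for mesothelial genes. For 11 endothelial genes it was 0.07 (9 higher), with the junction protein gene Esam at 0.25 and the guidance receptor gene Robo4 at 0.21, and it turned to -0.03 without WT replicate 2 and to -0.08 without WT replicate 2 and KO replicate 3. Skeletal muscle genes had a median of -0.10 (2 of 11 higher) and epididymis genes one of -0.07 (3 of 8 higher). The muscle median was set by WT replicate 2 and KO replicate 3, 1 in each genotype: it was 0.88 without the former, -1.31 without the latter and -0.24 without both. Leaving out WT replicate 3 or KO replicate 1 moved it to -0.87 or 0.56, and the epididymis median was 0.06 without WT replicate 1. The mean of the epididymis list was high on WT replicate 1 (5.60) and KO replicate 2 (5.25) and lay between 4.17 and 4.31 elsewhere. Only 3 of its 8 genes had their 2 highest values on that pair, and 0 of the 8 lay above the median signal. Among them Adam7 was at 10.33 and 9.19 on the pair, against 3.67 to 4.51 elsewhere. No progenitor marker had its 2 highest values on that pair, a count given without a share over all genes.

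**Figure D4:**
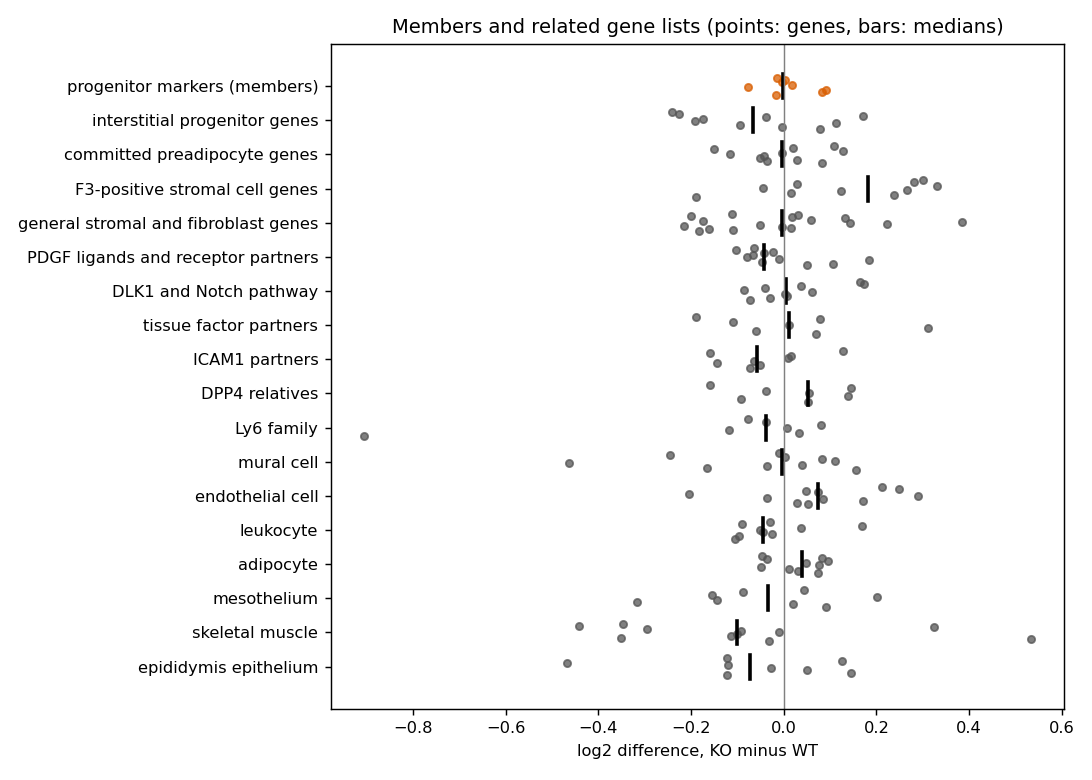
Log2 difference between KO and WT (horizontal axis, KO minus WT) of every measured gene of the progenitor markers (orange) and 17 related lists (grey), with a black bar at the median of each list. The 8 markers lie between -0.08 and 0.09, and the widest difference is that of Ly6d at -0.91.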

How the data were processed

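Adipose tissue RNA of 3 WT and 3 cavin-3 KO mice was amplified to cDNA, labelled with biotin and hybridised to Affymetrix Mouse Gene 1.0 ST arrays. The authors processed the scans with GenePattern modules, and the submitters' processing notes name RMA (background correction, quantile normalization, probe summary). The deposited values are linear intensities per probe set, with medians of 67.1 to 70.8, and were taken to log2. The sources used here name no genome build for the array annotation. Because the raw scans were not analysed here, no probe set could be set against its background.

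The genotypes were compared with limma 3.58.1 (lmFit, eBayes; R 4.3.3) without covariates, and p-values were adjusted by Benjamini-Hochberg over 34760 probe sets. Intervals cover 95%. With 3 arrays a group the median standard error of a difference was 0.13 on the log2 scale, and among the markers it ran from 0.088 (F3) to 0.303 (Pi16). Precision is limited by the small number of arrays. The methods' t-test (Student) was an alternative, as were other scalings, filters, variance models, a replicate block and left-out arrays. The t-test threshold was the general one of the methods, 0.05. For its arrays the paper applied a stricter P value together with a 2-fold cut in either direction. The legends describe separate mice.

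Genes were named from the platform annotation, with 21640 probe sets of 1 symbol (21553 found in RefSeq), 1321 of several and 11799 not listed. Where a gene had several, the probe set with the highest mean was used. The text names all 9 members, up to 2 genes of each related list with the smallest unadjusted p, cavin-3, Xist and Uty, and the nearest profiles of the 3 markers with the widest SD over the 6 arrays. Further mural cell genes, Ly6e and Adam7 are named to show what lies behind a list value. Members and lists were chosen with earlier results of these data known. The fit was tested on simulated data.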

Additional observations from a re-analysis of the deposited data

How the results depend on the processing

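Under each of the 18 alternatives, 0 of the 8 progenitor markers had an adjusted or unadjusted p under 0.05, and 0 of the 160 genes of the related lists had an adjusted one. With differences this close to 0, signs were not stable. The number of markers higher in KO, 4 with all arrays, was 2 with array weights and 2 to 7 when single arrays were left out, and the median difference was then -0.11 to 0.097. Array weights turned Pdgfrb to -0.11, Icam1 to -0.055, F3 to 0.029 and Cd34 to -0.086, and quantile normalization turned F3 to 0.0035. Without WT replicate 2 and KO replicate 3 together, Pdgfrb was at -0.12, Pi16 at 0.073, Icam1 at -0.077, F3 at 0.074, Cd34 at -0.047 and Vcam1 at -0.062. Without WT replicate 1 and KO replicate 2 together, Pdgfra was at 0.063, Cd34 at -0.084 and Dlk1 at 0.042. The cause of these turns was not tested. Leaving out single arrays gave log2 differences of -0.26 to 0.15 for Pdgfra, -0.098 to 0.30 for Pdgfrb, -0.088 to 0.20 for Dpp4, -0.35 to 0.21 for Pi16, -0.080 to 0.093 for Icam1, -0.033 to 0.046 for F3, -0.13 to 0.12 for Cd34 and -0.15 to 0.091 for Dlk1. Other named genes that changed sign were Vcam1 (-0.038 to 0.25), Ebf2 (-0.026 to 0.22), Meg3 (-0.017 to 0.34) and Jag2 (-0.15 to 0.0077).

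The log2 difference of cavin-3 was -3.57 with the methods' t-test (adjusted p = 1.0), -3.57 with a replicate block (adjusted p = 0.681 from limma) and -3.40 on log2(value + 16) (0.113). With WT replicate 2 and KO replicate 3 left out it was -3.46 (0.391), with WT replicate 1 and KO replicate 2 left out -3.72 (0.444), and without single arrays -3.78 to -3.35 (0.0459 to 0.509). Its direction held in all of these fits, and its call did not. Arrays with the same replicate number did not deviate together (r across probe sets of -0.15, -0.37 and -0.095 for numbers 1, 2 and 3), so the numbers were not taken as pairs. Arrays of different numbers had a positive r in 3 cases, WT replicate 1 with KO replicate 2 (r = 0.52), WT replicate 2 with KO replicate 3 (0.48) and WT replicate 3 with KO replicate 1 (0.37), which no label pairs. Deviations were taken from the mean of each genotype and cancel within it, so some pairs had to come out positive. With the replicate number as a block, 0 of 8 markers passed and 4 were higher in KO.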
